A study of Mus musculus with 6 samples.

Results

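Collagen chain genes were followed across 6 mouse hearts. They were taken as every gene whose symbol has the form Col, a type number, a and a chain number, which gave 44 of the 19938 genes named on the Affymetrix Mouse Gene 1.0 ST array. Of these, 42 had 1 probe set, and Col6a5 and Col6a6 had several, of which the one with the highest mean was used. The hearts came from mice 6 months old (postnatal day 180), and 1 array was run per heart sample. The Id cKO heart carried Tie2Cre (a Cre transgene active in endothelial and blood cells), an Id1 allele that is floxed beside one that is null, and null alleles of Id3 (Id1F/-Id3-/-). A pair of further Id cKO samples, 1 treated with recombinant mouse IGFBP3 and 1 left untreated as its control, is called the incubated pair here, after the series' design text. The labels give no fuller genotype for this pair. Id control 1 was Id1F/+Id3-/- with no Cre named, Id control 2 was Tie2Cre+Id1-/-Id3+/-, and 1 heart was wild type (WT). The Cre acts on the floxed allele in those cells, whereas the null Id1 allele and the loss of Id3 apply to every cell. No label gives the number of animals behind an array.

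Collagens are secreted proteins whose chains wind into a triple helix, alone or with chains of another gene. Fibrillar collagens form the stiff cables between heart muscle cells and are laid down mainly by fibroblasts. Type IV collagen forms the sheet under endothelium and around each muscle cell, type VI forms beaded filaments beside that sheet, and FACIT collagens sit on the surface of fibrils. Id1 and Id3 are helix-loop-helix proteins that hold E proteins away from DNA. IGFBP3 is a secreted binding protein of insulin-like growth factors.

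All levels are log2 values, and a difference of 1 is 2-fold. WT, Id control and Id cKO were compared as deposited. The incubated pair was deposited on a lower scale, with array medians of 4.45 and 4.51 against 5.73 to 5.83 on the other 4 arrays, so levels were set across the 2 sets of arrays only after quantile normalization. A gene was compared where the higher group mean reached 6, and counted where it was at least 2-fold apart, for every pair of arrays where a group held more than 1. Id1 was at 6.48 in Id cKO, 8.105 and 6.41 in the Id controls and 8.14 in WT, and Id3 at 4.69, against 5.02 and 7.32 in the Id controls and 7.18 in WT. The arrays also differed beside genotype. WT and the incubated hearts had a male pattern (Eif2s3y between 6.20 and 7.98, Xist between 2.998 and 4.04) and the other 3 hearts a female one (2.73 to 3.03 and 8.15 to 8.62). Date codes in the labels set Id control 1 and the incubated pair apart from the rest. The 10 cardiomyocyte markers averaged between 13.10 and 13.27 on the 4 arrays deposited on a common scale. Some atrial genes stood out on Id control 2, where the atrial light chain Myl7 was at 12.27 against 5.28 to 5.38 on the other 3 of these arrays. Of the further atrial markers, Myl4, Sln, Nr2f2 and Stard10 were also highest there. Nppa was not, at 14.03 in Id cKO and 13.71 in Id control 2, and Bmp10 was lowest in Id control 2 (3.98). In heart tissue, fewer cells of a type and less RNA per cell cannot be told apart.

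The promoters of 3 collagen genes that the results below turn on are printed here. Col1a2 and Col3a1 encode fibril chains that were higher in several of the hearts, and Col8a1, a chain of a subendothelial network, had the widest range of the 44 genes. Each line gives the 250 bases before the RefSeq start of the gene, 5′ to 3′ on the strand of the gene, on GRCm38.p6. Capitals mark E boxes (CANNTG, the site type that E proteins bind), CCAAT boxes and GC boxes (GGGCGG), on either strand. Col1a2 lies at chr6:4505368-4505617 on the plus strand, Col3a1 at chr1:45311288-45311537 on the plus strand and Col8a1 at chr16:57754738-57754987 on the minus strand.
Col1a2: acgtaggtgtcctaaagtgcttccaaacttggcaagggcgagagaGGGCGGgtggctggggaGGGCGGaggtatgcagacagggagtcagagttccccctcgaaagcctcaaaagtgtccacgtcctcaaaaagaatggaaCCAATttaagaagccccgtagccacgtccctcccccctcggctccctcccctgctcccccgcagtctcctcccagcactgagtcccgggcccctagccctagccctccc
Col3a1: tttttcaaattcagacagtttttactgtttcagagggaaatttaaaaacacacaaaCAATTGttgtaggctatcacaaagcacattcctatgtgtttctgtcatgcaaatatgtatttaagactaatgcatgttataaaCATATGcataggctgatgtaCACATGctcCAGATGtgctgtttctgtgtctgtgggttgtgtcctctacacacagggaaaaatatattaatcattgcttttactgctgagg
Col8a1: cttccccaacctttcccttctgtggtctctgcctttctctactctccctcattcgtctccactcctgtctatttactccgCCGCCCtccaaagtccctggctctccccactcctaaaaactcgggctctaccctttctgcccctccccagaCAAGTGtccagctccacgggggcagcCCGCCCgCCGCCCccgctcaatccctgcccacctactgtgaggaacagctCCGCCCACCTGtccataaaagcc

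Col1a2 held 0 E boxes, 1 CCAAT box and 2 GC boxes, Col3a1 held 4 E boxes and neither of the others, and Col8a1 held 2 E boxes and 4 GC boxes, 1 of which overlaps an E box. RefSeq promoter entries were matched for 35 of the 44 genes, with 38 starts. An E box was found in 19 of these 38 windows, where 66.2% of all 32851 promoter windows of the same length held one. GC boxes stood in 57.9% of the collagen windows and 32.7% of all, CCAAT boxes in 34.2% and 33.8%, and TATAAA in 13.2% and 12.4%. E boxes were thus rarer than in all windows, GC boxes more frequent and the other motifs at about the same share, with no test of these shares. The matches describe letters in these windows and no binding was measured.

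Against WT, members of the fibril, basement membrane and vessel-associated collagens were higher in Id cKO. Of the 44 collagen genes, 38 reached the level at which genes were compared, and 11 of them had a level in Id cKO at least 2-fold that of WT, with 0 at least 2-fold lower. Over all 11478 genes compared, 3.17% reached 2-fold, with 2.2% of all genes higher and 0.967% lower. The same 11 genes were counted when no level was required. Both groups were 1 array, so this comparison has no replicate check. The remaining collagens lay on either side of WT, so that 21 of the 38 were higher and 17 lower, and the median difference of 0.06 was near the 0.004 of all genes. The 6 genes not compared, Col4a6, Col6a4, Col8a2, Col10a1, Col19a1 and Col28a1, differed from WT by -0.25 to 0.27.

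Within the fibrillar class, chains of types I, III and V lay above WT and the cartilage-type chains below it. Col1a1, the main chain of type I fibrils, was at 10.50 in Id cKO, 9.30 in Id control 1, 10.49 in Id control 2 and 8.74 in WT. Its partner chain Col1a2 was at 9.85 in Id cKO, 8.985 and 10.20 in the Id controls and 8.56 in WT. Col3a1, the type III chain of thin fibrils, was at 9.725 in Id cKO, 9.04 and 10.24 in the Id controls and 8.22 in WT. The Id cKO levels of these genes were 3.4-fold, 2.45-fold and 2.85-fold those of WT, but Id control 2 lay as high as Id cKO for Col1a1 and above it for Col1a2 and Col3a1. The type V chains, which seed fibrils and limit their width, came next. Col5a2 was at 7.52 in Id cKO, 6.57 and 7.475 in the Id controls and 6.53 in WT, just under 2-fold above WT (0.99). Col5a3 was at 7.48 in Id cKO, against 6.615, 6.76 and 6.77 in Id control 1, Id control 2 and WT, and was thus higher in Id cKO alone of the 4 hearts. Col5a1 differed by 0.31 from WT. Col2a1, Col11a1, Col11a2, Col24a1 and Col27a1, known mainly from cartilage and bone, differed from WT by -0.37 to -0.02.

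Among the type IV chains, Col4a1 and Col4a2 were at least 2-fold above WT and the other chains were not. Col4a1 and Col4a2 form the type IV network found in nearly all basement membranes. Col4a1 was at 10.70 in Id cKO, 9.19 and 9.62 in the Id controls and 9.14 in WT. Col4a2 was at 10.435 in Id cKO, 9.07 and 9.47 in the Id controls and 8.94 in WT. For both genes Id cKO stood above the other 3 hearts, with Id control 1 and WT close together, and Id cKO differed from WT by 1.55 and 1.495. Col4a3 and Col4a4, chains best known from the kidney filter, lay within 0.04 of WT. Col4a5 was at 7.24 in Id cKO and 7.01 and 7.61 in the Id controls, against 6.645 in WT. Col4a5 is X-linked, and the male-pattern WT heart was the lowest of the 4. The part of sex in that difference was not tested.

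Of the type VI chains, which form beaded filaments, the chains of the common trimer lay above WT in Id cKO. Col6a3 was at 8.43 in Id cKO, 7.36 and 8.11 in the Id controls and 7.19 in WT, a difference of 1.24 from WT. Col6a2 differed by 0.88 and Col6a1 by 0.79, both under 2-fold. The alternative chains Col6a4, Col6a5 and Col6a6 differed from WT by -0.12 to -0.06. Of the FACIT collagens, which coat fibrils, Col12a1 and Col14a1 were 2-fold higher and no other differed from WT by more than 0.19. Col12a1 was at 6.76 in Id cKO, 5.15 and 5.72 in the Id controls and 5.28 in WT, so that it reached 6 in Id cKO alone. Col14a1 was at 8.27 in Id cKO, 8.11 and 8.61 in the Id controls and 6.57 in WT. For Col12a1 the Id cKO heart thus stood apart, and for Col14a1 it was WT that stood apart from the other 3.

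The remaining 2-fold genes belong to vessel and basement membrane zones. Col8a1, a short chain of the network laid down by endothelial and smooth muscle cells, was at 8.85 in Id cKO, 7.07 and 8.07 in the Id controls and 6.70 in WT. At 4.43-fold it had the largest difference from WT of the 44 genes. Its partner chain Col8a2 was at 5.805 in Id cKO, 5.945 and 5.79 in the Id controls and 5.75 in WT, a range of 0.20 over these arrays. Col15a1 and Col18a1 are multiplexins of the basement membrane zone, and Col18a1 is the source of the fragment endostatin. Col15a1 was at 9.29 in Id cKO, 8.73 and 9.17 in the Id controls and 7.90 in WT. Col18a1 was at 8.06 in Id cKO, 6.76 and 7.34 in the Id controls and 6.80 in WT. Id cKO was highest for both genes, and for Col18a1 Id control 1 lay near WT with Id control 2 between WT and Id cKO. For Col15a1 both Id controls lay between WT and Id cKO. The transmembrane collagens Col13a1, Col17a1, Col23a1 and Col25a1 differed from WT by at most 0.11. Col7a1, of the anchoring fibrils of skin, and Col26a1 differed from it by -0.11 and -0.18.

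**Figure D1:**
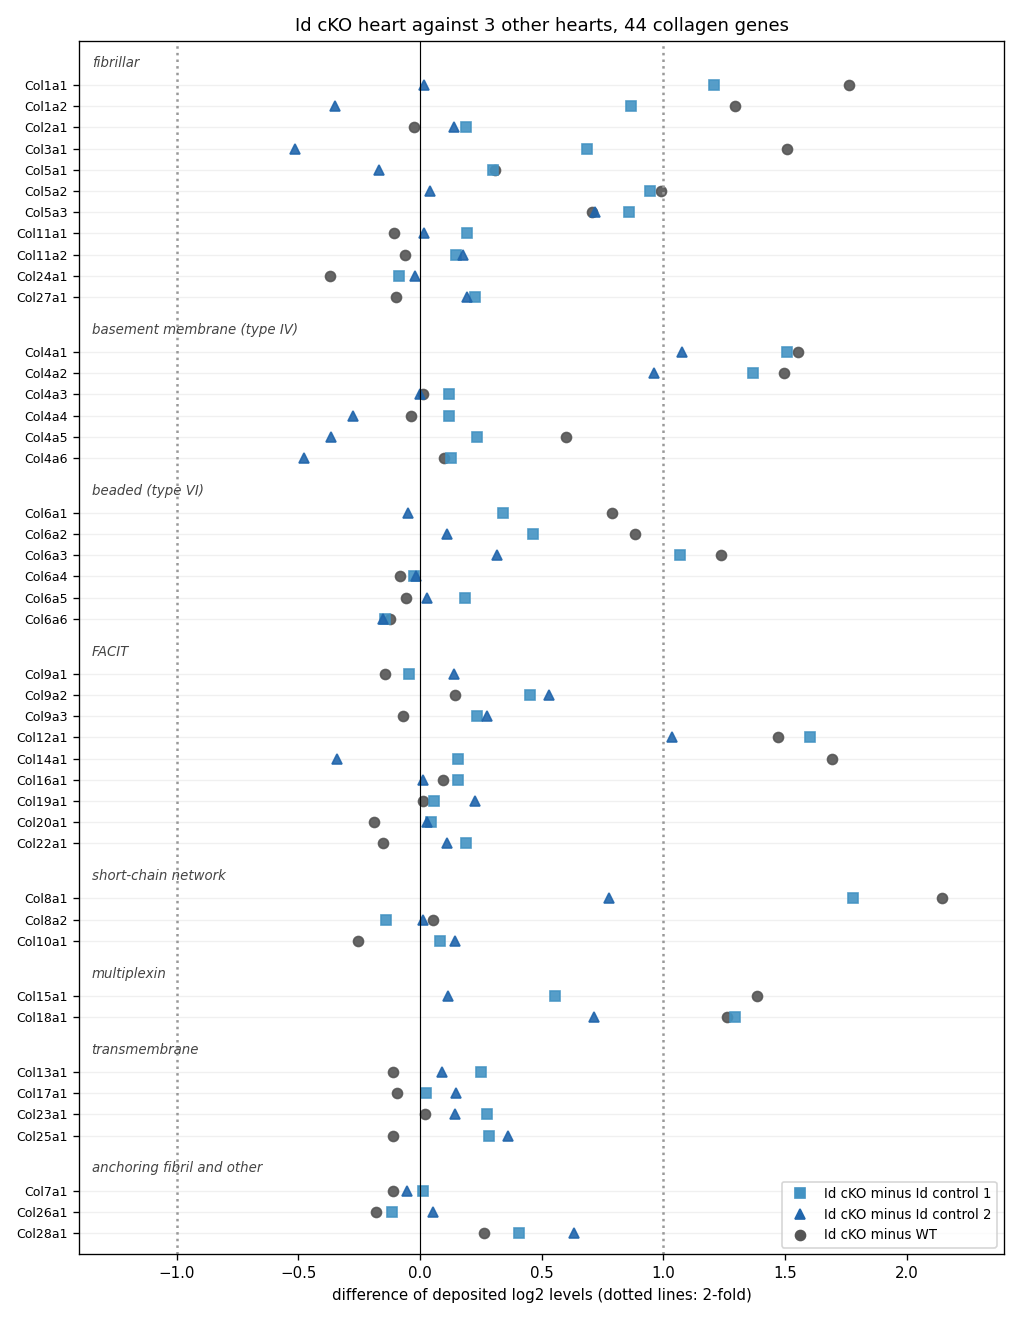
Differences of deposited log2 levels (x axis) of the Id cKO array minus Id control 1 (squares), minus Id control 2 (triangles) and minus WT (circles) for the 44 collagen genes, grouped by class, with dotted lines at 2-fold. Each symbol is 1 array minus 1 array; for Col4a1 and Col12a1 all 3 symbols lie beyond 2-fold, while for Col1a1 the triangle lies at 0.02.

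The comparison with Id control set Id cKO against hearts that share part of its Id allele losses and its female pattern. Id control 1 is Id3-/-, as Id cKO is, and Id control 2 is Id1-/-. Col4a1 and Col12a1 were at least 2-fold above both Id control arrays. These were 2 collagen genes of the 36 compared, where 1.12% of 11310 genes were 2-fold from both arrays, 0.698% higher and 0.424% lower. Col12a1 was under 6 in both Id controls and was compared only because Id cKO reached that level, whereas Col4a1 was above it on every array. Col4a1 was 1.51 above Id control 1 and 1.08 above Id control 2, and Col12a1 was 1.605 and 1.04 above them. Col4a2 was 1.37 and 0.96 above, Col8a1 1.78 and 0.78, Col18a1 1.295 and 0.72, and Col5a3 0.86 and 0.72. For these 6 genes the Id cKO level thus lay above both Id control levels by at least 0.716. Without Id control 2 the count of 2-fold genes was 7 in place of 2, and it was 2 without Id control 1. With 1 Id control array there are fewer pairs to pass for every gene, and the share of all genes was not recounted.

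In limma with Benjamini-Hochberg adjustment over all genes, the Id cKO and Id control hearts differed at an adjusted p of 0.05 in 0 of the 36 collagen genes and in 2 of all 11310 genes (0.0177%). At an unadjusted p under 0.05, 7 of the 36 collagen genes and 13.5% of all genes were found. Col4a1 differed by 1.29 ± 0.23 (limma SE, 1 array against 2, adjusted p = 0.228), Col4a2 by 1.165 ± 0.22 (adjusted p = 0.232) and Col12a1 by 1.32 ± 0.28 (adjusted p = 0.236). Col5a3 differed by 0.79 ± 0.15 (adjusted p = 0.233), Col18a1 by 1.005 ± 0.28 (adjusted p = 0.302) and Col8a1 by 1.28 ± 0.44 (adjusted p = 0.349). For the type I and III chains the difference was 0.61 for Col1a1, 0.26 for Col1a2 and 0.09 for Col3a1, and for Col14a1 it was -0.09. Id cKO lay between the Id control arrays for Col1a2, Col3a1 and Col14a1. Only the 2 Id control arrays give a residual degree of freedom, so the lone Id cKO array was taken to vary as they do.

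The 2 Id control hearts differed from each other in the same fibril chains. Id control 2 was above Id control 1 by 1.19 for Col1a1, 1.22 for Col1a2, 1.20 for Col3a1, 1.00 for Col8a1 and 0.90 for Col5a2. Of 35 collagen genes compared, 29 were higher in Id control 2 (82.9%), as were 5619 of all 11244 genes. Col11a1, Col4a3 and Col4a6 reached 6 on Id control 2 alone, and Col9a1 and Col17a1 on Id control 1 alone. The direction of these genes was fixed by the level required. Of the 29, 3 were at least 2-fold higher, where 1.21% of 11244 genes were 2-fold apart between these arrays, 1.04% higher and 0.169% lower in Id control 2. By contrast Col4a1 and Col4a2 differed by 0.43 and 0.40 and Col14a1 by 0.50. Fibroblast markers also averaged highest in Id control 2, though Thy1 and Vim were not highest there. The 10 markers, among them Pdgfra, Tcf21 and Dcn, averaged 9.09 in Id cKO, 9.15 in Id control 1, 9.815 in Id control 2 and 8.79 in WT. Against WT, 5 of the 10 were higher and 5 lower in Id cKO, where 50.8% of all genes were higher. Pdgfra, Tcf21 and Dcn were among the lower ones. Atrial muscle markers averaged 7.20 in Id cKO, 6.96 and 9.875 in the Id controls and 6.87 in WT. The part of these cells or of atrial tissue in the collagen levels of Id control 2 was not tested.

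Activated fibroblast markers ordered the hearts otherwise, with Id cKO first. The mean of 10 such markers was 8.19 in Id cKO, 6.98 and 7.60 in the Id controls and 6.64 in WT. All 10 were above WT in Id cKO, where 50.8% of all genes were. Of the 10, 6 were at least 2-fold higher, among them Postn, the matrix protein periostin, and Cilp. Cthrc1 and Fap reached 6 in Id cKO alone, so their direction was fixed by the level required. Against both Id control arrays 4 were 2-fold higher (Postn, Cilp, Ltbp2 and Thbs4) and Acta2 was 2-fold lower. Tagln was also below both, at 7.58 in Id cKO against 7.995 and 8.93 in the Id controls. Endothelial markers averaged 9.63 in Id cKO, 9.15 and 9.25 in the Id controls and 9.11 in WT. Markers of cartilage and valve cells, 9 genes such as Acan and Matn1, averaged between 5.21 and 5.445 on these arrays, with Acan between 5.44 and 5.60. The part of these cell types in the collagen differences was not tested.

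Set against WT, the Id control hearts carried higher Col14a1. It was at 8.11 and 8.61 in the Id controls against 6.57 in WT, and was the collagen gene 2-fold apart on both arrays, of 37 compared, where 0.202% of 11407 genes were, 0.105% higher and 0.0964% lower. Its difference of 1.785 ± 0.25 (limma SE) had an adjusted p of 0.629. In limma 0 of the 37 collagen genes passed, as did 0 of all genes (0%), against 6 collagen genes and 7.26% of all at an unadjusted p under 0.05. Col3a1 differed by 1.42 ± 0.52, Col1a1 by 1.15 ± 0.52, Col15a1 by 1.05 ± 0.23, Col1a2 by 1.035 ± 0.53 and Col8a1 by 0.87 ± 0.44 (limma SE, adjusted p between 0.629 and 0.638). Without Id control 1 the 2-fold count was 6 in place of 1, with Col1a1, Col1a2, Col3a1, Col8a1 and Col15a1 joining Col14a1. Without Id control 2 it was 1. The share of all genes was not recounted for either. The Id cKO, Id control and WT comparisons share arrays, so their values are given side by side and are not independent of each other. Genotype, the sex pattern and any peculiarity of the lone WT heart cannot be told apart here.

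**Figure D2:**
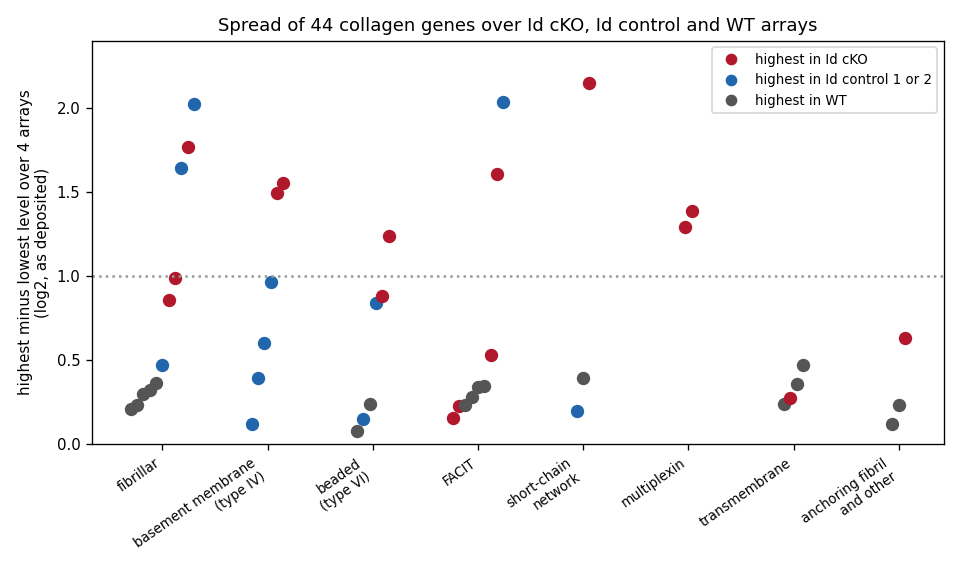
Highest minus lowest deposited log2 level over the Id cKO, 2 Id control and WT arrays (y axis) for each of the 44 collagen genes, by class (x axis), coloured by the group with the highest array. The dotted line marks 2-fold; 11 genes lie above it, and the 4 transmembrane genes all lie below 0.5.

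Over these 4 arrays the classes differed in how far their members ranged. A total of 11 genes had a range of at least 2-fold, and 25 of the 44 ranged by less than 0.5, as the plot of ranges by class shows. Median ranges were 0.475 for fibrillar, 0.785 for type IV, 0.54 for type VI, 0.34 for FACIT, 0.40 for short-chain, 1.34 for multiplexin, 0.32 for transmembrane and 0.23 for the remaining collagens. The highest of the 4 levels was in Id cKO for 16 genes, in Id control 1 for 1, in Id control 2 for 10 and in WT for 17. Among genes whose highest level reached 6, the highest was in Id cKO for 35.9% of 39 collagen genes and 26.0% of all 11708 genes, in Id control 1 for 0% and 24.4%, in Id control 2 for 25.6% and 27.9%, and in WT for 38.5% and 21.7%. Where WT was highest the range was at most 0.47, reached by Col25a1.

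Within the incubated pair, most collagens were lower in the IGFBP3-treated heart, and most by less than 1.5-fold. Of 23 collagen genes compared on this pair, 22 were lower with IGFBP3 and 1 was higher, with a median difference of -0.42, where the median of all 7474 genes was 0.05 and 45.1% were lower. Of the 22, Col2a1, Col5a3, Col27a1, Col9a2, Col12a1, Col16a1, Col8a2 and Col13a1 reached 6 on the untreated array alone. The direction of these genes was fixed by the level required. Col1a1 alone was at least 2-fold apart, where 1.3% of all genes were, 0.495% higher and 0.803% lower. It was at 8.61 with IGFBP3 against 9.71 without, 2.14-fold lower in the treated heart. Col15a1 was at 6.74 with IGFBP3 and 7.735 without, a difference of -0.997, and reached 2-fold after quantile normalization or cyclic loess. Col12a1 was at 5.57 with IGFBP3 and 6.19 without (-0.62). Col1a2, the partner of Col1a1, was at 9.29 with IGFBP3 and 9.80 without, and Col3a1 at 8.38 and 8.88. The 2 chains of type I collagen thus differed by unequal amounts, -1.10 and -0.51.

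The other collagens compared on this pair lay within 1.5-fold. Col8a1 was at 8.61 with IGFBP3 against 9.10 without, and Col8a2 at 5.77 against 6.26 (-0.49 and -0.495). Col18a1 was at 6.19 with IGFBP3 and 6.69 without, and Col4a1 and Col4a2 differed by -0.28 and -0.12. Col6a3 was the gene that was higher with IGFBP3, at 6.44 against 6.23. The collagen genes under a level of 6 on both arrays included all 4 others with a higher level in the treated heart, Col4a3, Col4a4, Col4a5 and Col28a1. Of activated fibroblast markers, Thbs4 and Ltbp2 were at least 2-fold lower with IGFBP3, while Postn was at 11.07 with IGFBP3 and 10.95 without. The 10 fibroblast markers averaged 9.02 with IGFBP3 and 8.89 without. Each side is 1 array, so the direction has no replicate check. The 22 genes are measured on the same 2 arrays and are not replicates of the treatment.

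**Figure D3:**
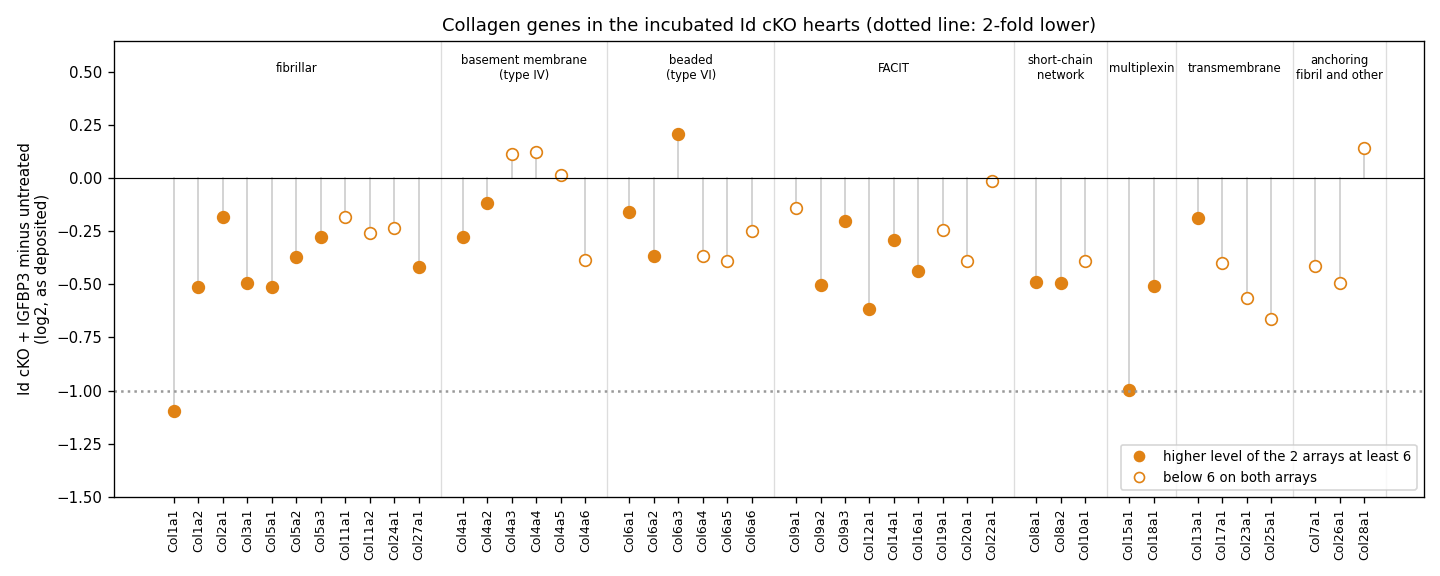
Difference of deposited log2 levels, IGFBP3-treated minus untreated Id cKO heart (y axis), for the 44 collagen genes by class, 1 array each. Filled points reached a level of 6 on at least 1 array. Of these 23, 22 lie below 0, those that reached 6 on the untreated array alone necessarily so. Col1a1 lies below the dotted 2-fold line.

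After quantile normalization over the 6 arrays, the incubated Id cKO hearts also had higher fibril-associated and type VIII collagens than WT. Of 33 collagen genes compared, 8 were at least 2-fold higher than WT on both incubated arrays and 0 lower, where 7.91% of 10272 genes were 2-fold apart on both, 5.11% higher and 2.8% lower. They were Col1a1, Col1a2, Col3a1, Col5a2, Col12a1, Col14a1, Col8a1 and Col8a2, and 6 of them are among the 11 that were 2-fold higher in the other Id cKO heart. Both comparisons use the same WT array. Col12a1 and Col8a2 were under 6 in WT and entered through the incubated arrays alone. Col8a1 was at 9.41 and 9.97 on the treated and untreated arrays against 6.30 in WT on this scale, 10.5-fold higher on average. Col14a1 was at 8.44 and 8.79 against 6.16 in WT, and Col1a2 at 10.09 and 10.64 against 8.21. Col12a1 was at 6.38 and 7.00 against 4.77. For these genes both incubated hearts lay more than 2-fold above WT. Col1a1 was at 9.41 and 10.56 against 8.39 in WT, Col3a1 at 9.17 and 9.75 against 7.87, and Col5a2 at 7.56 and 7.96 against 6.11. Col18a1, not 2-fold higher on both, was at 6.98 and 7.52 against 6.41 in WT.

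Of the 11 genes 2-fold higher in Id cKO than in WT, Col4a1, Col4a2, Col6a3 and Col18a1 lay between these levels in both incubated hearts. Col4a1 was at 9.18 on the treated and 9.535 on the untreated array, 10.30 in Id cKO and 8.78 in WT after quantile normalization. Col4a2 was at 9.36 and 9.56, against 10.02 in Id cKO and 8.59 in WT. Col6a3 was at 7.23 and 7.05, against 8.05 in Id cKO and 6.83 in WT, and Col18a1 at 6.98 and 7.52, against 7.67 and 6.41. Col15a1 was at 7.52 on the treated array, beside 7.55 in WT, and at 8.57 on the untreated one, and was thus the gene of the 11 whose incubated levels overlapped WT.

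Against both Id control arrays, Col12a1, Col8a1 and Col8a2 were 2-fold higher on both incubated arrays, 3 of 32 collagen genes compared where 4.36% of 10251 genes were, 2.7% higher and 1.66% lower. Col12a1 and Col8a2 were under 6 on both Id control arrays, so that they too were compared only through the incubated arrays. Without Id control 2 the count was 5, with Col1a2 and Col5a2 added. Against Id cKO, Col8a2 was 2-fold higher on both incubated arrays, 1 of 32 where 3.6% of 10143 genes were, 2.8% higher and 0.799% lower. It stood at 6.57 and 7.08 against 5.38, so that it was compared only because the incubated arrays reached 6. Without the treated array 4 genes were 2-fold apart, with Col1a2, Col8a1 and Col8a2 higher and Col6a3 lower than in Id cKO. Without the untreated array 3 were, with Col8a2 higher and Col4a1 and Col15a1 lower. For these counts with an array left out the share of all genes was not recounted. Col8a2 lay between 5.26 and 5.54 on the other 4 arrays, so both chains of type VIII were high in the incubated hearts, while Col8a1 alone was high in Id cKO. The activated fibroblast markers on this scale averaged 8.515 and 8.92 on the treated and untreated arrays and 6.20 in WT. The fibroblast markers averaged 9.75 and 9.65 there and 8.43 in WT, and endothelial markers 9.71 and 9.60 against 8.745. Cardiomyocyte markers averaged 12.545 and 12.44 against 12.97 in WT, with 9 of 10 lower and Tnni3, cardiac troponin I, 2-fold lower (-1.36). All 6 leukocyte markers compared were higher than in WT, with Cd68 and Lyz2 at least 2-fold higher. Of these, Ptprc and Itgam were under 6 in WT on this scale, so their direction was fixed by the level required. The part of cell composition was not tested. The incubated pair has its own date code and was deposited on its own scale. Incubation, date and processing thus cannot be told apart in the differences to the other arrays. Sex cannot be told apart either against Id cKO and the Id controls, whose female pattern the incubated hearts did not share.

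**Figure D4:**
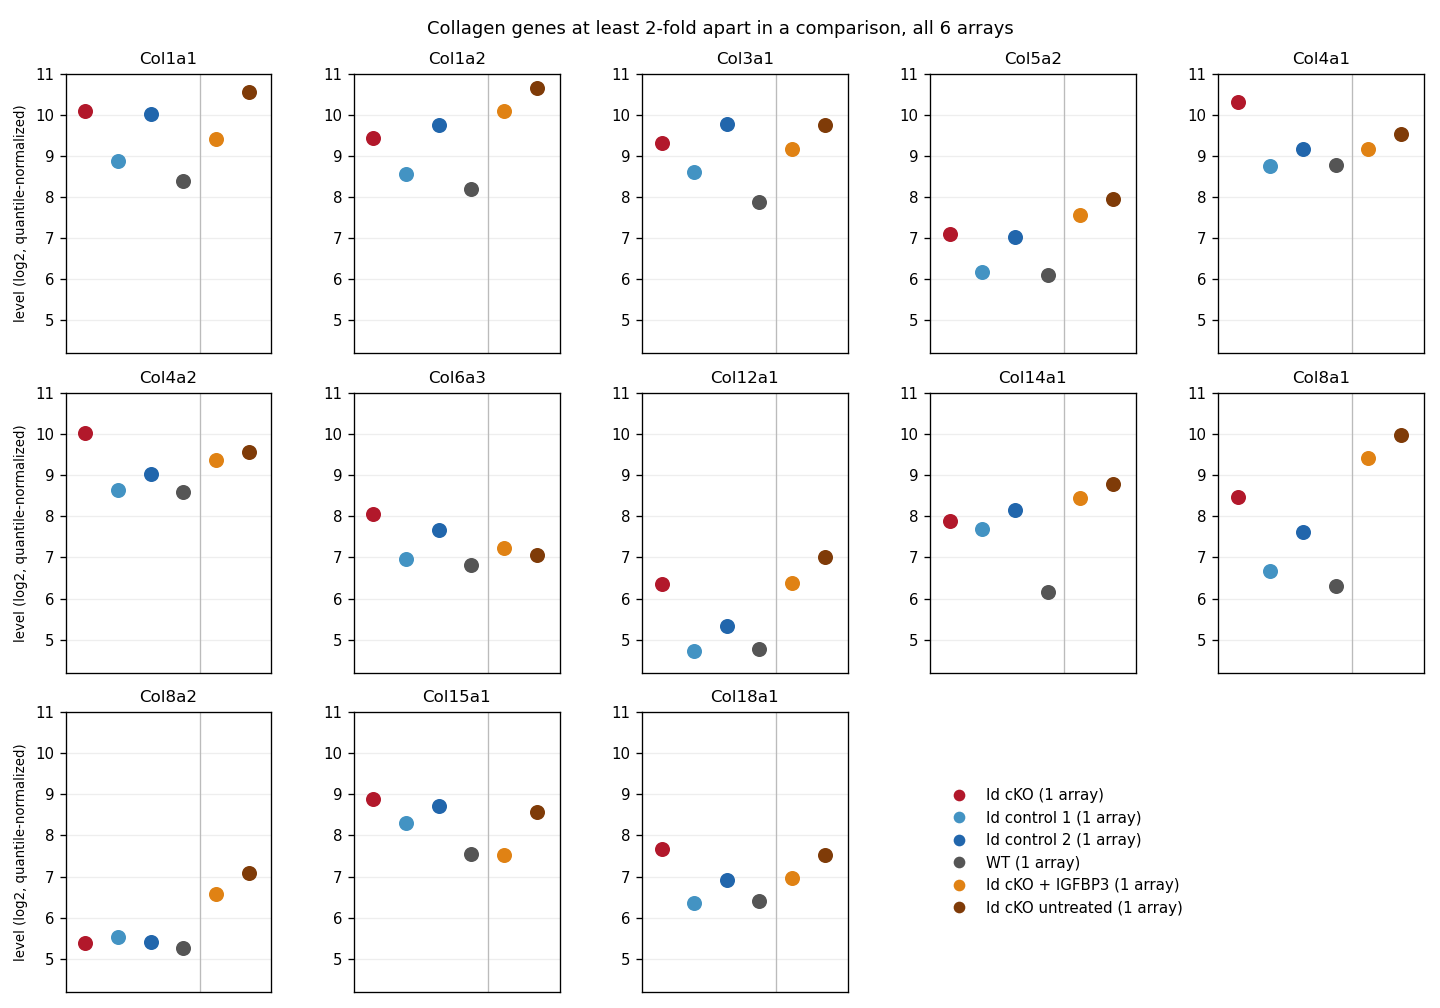
Quantile-normalized log2 level (y axis) on each of the 6 arrays for the 13 collagen genes at least 2-fold apart in a comparison, with the arrays deposited on the lower scale to the right of the grey line. Each point is 1 array; Col8a1 is lowest in WT (6.30) and highest in the untreated Id cKO heart (9.97).

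Chains that assemble together and genes that lie side by side are compared here by their own differences. By the RefSeq table of GRCm38.p6, 8 pairs of collagen genes follow each other among protein-coding genes. Col4a1 and Col4a2 on chromosome 8 start head to head, with the starts within 22 bases, and differed from WT in Id cKO by 1.55 and 1.495. Col3a1 and Col5a2 on chromosome 1 differed by 1.51 and 0.99, and Col6a2 and Col6a1 on chromosome 10 by 0.88 and 0.79. The pairs Col4a4 with Col4a3, Col6a6 with Col6a5, Col6a5 with Col6a4 and Col9a1 with Col19a1 lay within 0.15 of WT throughout. Col4a6 and Col4a5 on the X chromosome were at 0.10 and 0.60. In the incubated pair the difference farthest from 0 among these neighbours was -0.49, for Col3a1.

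Among genes that handle collagen, 4 of the 42 compared stood at least 2-fold above WT in Id cKO and 0 below (9.52%, beside the 3.17% of all genes given above). The incubated pair had 10 of 38 at least 2-fold above WT on both arrays and 0 lower (26.3%, beside 7.91% of all genes). Among the 10, Lox, Loxl3 and the protease gene Ctsk were under 6 in WT and were compared only through the incubated arrays. Of 15 compared genes for collagen modification and folding, P3h2, a prolyl 3-hydroxylase acting on type IV collagen, stood 2-fold above WT in Id cKO, and the median of the 15 was 0.41. P3h2 was at 9.05 in Id cKO, 6.70 and 7.61 in the Id controls and 6.84 in WT, and so was 2-fold above both Id controls as well (adjusted p = 0.236 in limma). P4ha1, a prolyl 4-hydroxylase subunit, was at 9.72 in Id cKO, 8.88 and 9.075 in the Id controls and 8.80 in WT. None of 7 secretion genes was 2-fold apart between Id cKO and WT, and Creb3l1, a transcription factor of secretory cells, had the largest difference at 0.79.

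Of 5 procollagen processing genes, Tll1, a protease of the tolloid family, was at 6.56 in Id cKO, 4.98 and 5.09 in the Id controls and 4.89 in WT. Its level in Id cKO was more than 2-fold that of the other 3 hearts (adjusted p = 0.127 against Id control in limma), but it reached 6 in Id cKO alone and was compared only through that array. None of 4 crosslinking genes was 2-fold apart between Id cKO and WT, with Loxl1 at 8.62 in Id cKO, 7.87 and 8.685 in the Id controls and 7.665 in WT. Loxl1 was at 7.43 with IGFBP3 and 8.43 without, a difference of -0.998. Lox and Loxl3, crosslinking oxidases, were 2-fold higher on both incubated arrays in each comparison after quantile normalization. On that scale both genes were under 6 in WT and in the Id control mean. Against these groups they were compared only through the incubated arrays. Loxl3 was also just under 6 in Id cKO on that scale, so the same holds for it there. Lox lay 1.145 above Id cKO, 2.12 above Id control and 2.06 above WT, and Loxl3 lay 1.68, 1.805 and 2.22 above them. Of 7 receptors, Itga1, a collagen-binding integrin chain, was at 9.77 in Id cKO, 8.915 and 8.54 in the Id controls and 8.503 in WT. Of 4 proteases, Mmp14, a membrane protease that cuts fibrils, was at 9.35 in Id cKO, 7.43 and 8.17 in the Id controls and 7.41 in WT. P3h2, Tll1 and Mmp14 were thus at least 2-fold above all 3 other hearts in Id cKO, as Col4a1 and Col12a1 were. Others, such as Itga1 and P4ha1, also stood above all 3 but not by 2-fold from each. None of the collagen handling genes compared passed limma against Id control.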

How the data were processed

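Each array gave 1 log2 value for each of 35557 probe sets. The authors deposited these log2 levels after Affymetrix Expression Console and RMA, per the submitters' processing notes, with versions not given in the sources used here. Probe sets were named from the supplied platform annotation. Of them, 21789 carried 1 symbol and were used, 1621 carried several and 12147 none. Where a gene had several probe sets, the one brightest on average was kept. All 44 collagen genes matched the RefSeq gene table by Entrez identifier.

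The collagen classes, 6 lists of collagen handling genes and 11 marker lists were chosen with earlier results of these data known. Levels were compared as deposited within each set of arrays and after quantile normalization between them. Genes needed a higher group mean of 6 and were counted at 2-fold. limma (version 3.58.1, R 4.3.3) was fitted to all genes over 6 arrays in 5 groups with 1 residual degree of freedom, and Benjamini-Hochberg adjusted p-values were held to 0.05. That degree of freedom comes from the Id control arrays, which differ in genotype and date code, so the p-values rest on a spread that holds both differences. The fit was run on simulated data with 1 spread for all genes, to check that mean fitted changes lay near the simulated ones. No error rate for these data is drawn from that run. Every collagen gene could be named, and values per array are given for those at least 2-fold apart. Genes of the handling lists were named at 2-fold or as the largest difference of their list. Named beyond this rule, after their values were seen, were P4ha1, Col5a3 and the quieter collagens. The number of arrays limits the precision. Alternatives were other floors, fold limits, scalings, probe set means, fits and left-out arrays.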

Additional observations from a re-analysis of the deposited data

How the results depend on the processing

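Across 74 recounts of collagen genes under the alternatives, 56 stayed within 1.5 times the value reported and 18 did not. The 11 genes 2-fold higher in Id cKO than in WT ranged from 10 to 16 in number. The limma counts of 0 stayed at 0 in every fit run, with smallest adjusted p between 0.142 and 0.58 against Id control and between 0.41 and 0.724 for Id control against WT. With a 1.5-fold limit the counts were 6 for Id cKO against Id control, 3 for Id control against WT, 3 for the IGFBP3-treated against the untreated heart, 5 for the incubated pair against Id control and 6 for it against Id cKO. With a floor of 8, which leaves fewer genes compared, they were 1 for Id cKO against Id control, and 5, 1 and 0 for the incubated pair against WT, Id control and Id cKO. Centring each array on its median gave 1 for Id cKO against Id control and 2 for the incubated pair against Id cKO, and quantile normalization and cyclic loess each gave 2 for treated against untreated. Leaving out 1 array gave 2 to 7 for Id cKO against Id control, 1 to 6 for Id control against WT, and 8 to 11, 3 to 5 and 3 to 4 for the incubated pair against WT, Id control and Id cKO. The 1.5-fold, floor, scaling and left-out-array counts are of collagen genes alone. At the 1.5-fold limit, 6.74% of all 7474 genes were lower and 7.65% higher in the IGFBP3-treated than in the untreated heart. For the other counts the share of all genes was not recounted. Where nothing else is said the cause was not tested. Of 663 recomputed differences of the 13 named collagen genes, 12 moved by more than the SD of the 2 Id control arrays and 0 of the called ones changed sign. limma could not be fitted without an Id control array, which would leave no residual degree of freedom. No paired analysis was possible because the labels give no replicate numbers.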
